A study of Homo sapiens with 4 samples.

Results

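CDKN2B-AS1 (ANRIL, ENSG00000240498) is a long noncoding RNA gene of chromosome 9, and its isoforms were described here in wild-type and oxaliplatin-resistant cells. All transcripts of the deposited table whose gene is CDKN2B-AS1 in GENCODE release 29 were taken, which gave 21 isoforms of 1 gene among 29585 named genes. The study sequenced total RNA of HepG2, an established human line classed in the labels as liver hepatocellular carcinoma, to find long intergenic noncoding RNAs that differ in drug resistance. There were 2 libraries of oxaliplatin-resistant cells (oxaliplatin is a platinum drug that binds DNA) and 2 libraries of wild-type cells, which carry the phenotype label wild type and no treatment. Each library used 2 µg of RNA and paired reads of 150 bases. The dose and time of selection, whether the resistant cells are 1 clone, and whether the 2 libraries of a group are separate cultures are not stated in the labels. The p-values therefore reflect only how far these 4 libraries vary, and that variation may be technical.

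CDKN2B-AS1 is transcribed from the 9p21 locus on the strand opposite to the cell cycle inhibitor genes CDKN2A and CDKN2B. The RNA is known for binding Polycomb proteins, which silence chromatin, and has been linked in other cells to repression of these inhibitors. It is spliced into many forms, some ending at a proximal exon and others at distal exons, and circular forms of its middle exons are known.

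The 2 resistant libraries held 43473826 and 44063444 counts, and the 2 wild-type libraries held 38113398 and 34898860. The values are estimated per transcript, and how reads common to several isoforms were assigned is not stated. The table holds almost no mRNAs, so the cell type label could be checked only on noncoding transcripts of marker genes. Of 21 hepatocyte names, 13 were in the table, and 9 of these had no count in any library, among them AFP, TTR, SERPINA1 and HNF4A-AS1. The list summed to 5194 to 5968 counts in the resistant libraries and to 6497 to 8197 in the wild-type libraries, nearly all of it H19, a lncRNA that is not particular to hepatocytes. Of 10 fibroblast names, 9 were in the table, and 3 of these, COL1A2, SPARC and LUM, had no count in any library. DCN and MEG3 had at most 2 and 5 counts in a library. The list summed to 6498 to 7676 counts in resistant and 6253 to 6674 in wild-type libraries, mostly from VIM and FN1. Endothelial markers summed to at most 3 counts and blood markers to at most 27 counts in a library. Apart from H19, these transcripts therefore do not bear out the hepatocyte label.

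On GRCh38 the gene spans chr9:21994778-22121097 on the plus strand, 126320 bases. Exons are numbered here by the longest isoform, ENST00000428597, which has 19. Of the 21 isoforms, 16 start at exon 1, 1 starts at exon 5 and 4 start near the distal end. When the span was cut into 3 equal parts, 2 isoforms had their 3′ end in the proximal part, 5 in the middle part and 14 in the distal part. The 5 with a middle end share a proximal terminal exon (chr9:22077679-22077890) that the 19-exon isoform lacks. Another exon it lacks, a cassette exon at chr9:22092308-22092469, is used by ENST00000580576 alone.

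**Figure D1:**
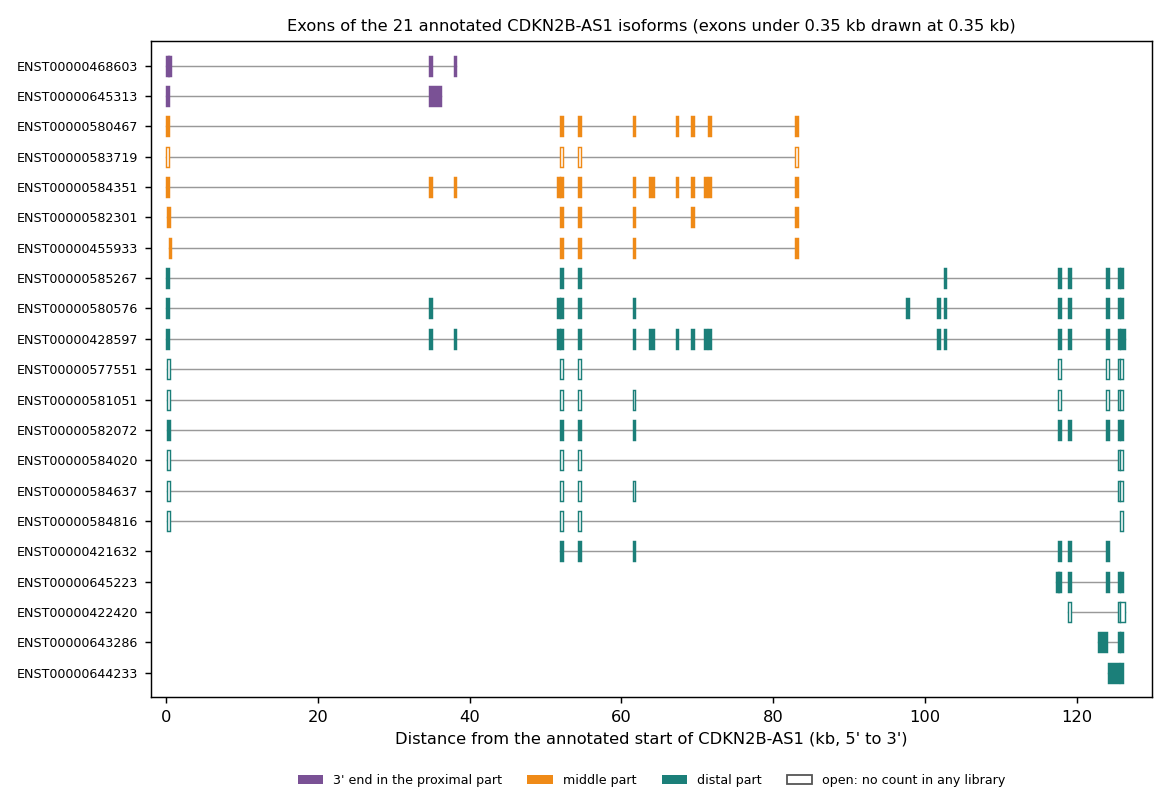
Exon structure of the 21 isoforms of CDKN2B-AS1, with position in kb from the start of the gene on the horizontal axis and 1 isoform per line, coloured by where its 3′ end lies. Of the 21 isoforms, 2 end in the proximal part of the gene, 5 at the proximal terminal exon in the middle and 14 in the distal part.

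Exon 7 (chr9:22056252-22056387) is held by 8 of the 14 isoforms with counts, and these split by the exon that follows it. The other 6 lack it, among them ENST00000645313, which ends in exon 2. Junctions of the isoforms described below are printed with the last 30 bases of the exon before in lower case and the first 30 of the exon after in capitals. They are read 5′ to 3′ on the plus strand from the release 29 transcripts. The first is held by the 19-exon isoform ENST00000428597 and by ENST00000584351. The junctions to exon 10 and to the proximal terminal exon are held by ENST00000582301 alone and by ENST00000455933 alone. The junction to exon 15 is held by ENST00000582072, ENST00000421632 and ENST00000581051. The last, which leaves exon 7 out, was found in ENST00000585267 alone.
exon 7 to exon 8: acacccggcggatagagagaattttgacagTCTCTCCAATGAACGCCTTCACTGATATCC
exon 7 to exon 10: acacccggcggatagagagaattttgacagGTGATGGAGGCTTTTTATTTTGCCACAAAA
exon 7 to exon 15: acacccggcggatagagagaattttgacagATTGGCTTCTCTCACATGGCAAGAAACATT
exon 7 to proximal terminal exon: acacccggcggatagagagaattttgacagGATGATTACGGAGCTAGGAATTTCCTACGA
exon 6 to exon 14: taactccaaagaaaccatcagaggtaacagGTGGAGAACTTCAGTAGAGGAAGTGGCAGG

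The proximal terminal exon sets the 3′ end of the isoforms that stop in the middle of the gene, so it is shown whole. Capitals mark AATAAA, the usual polyadenylation signal, 13 bases from its end. This motif was searched on the transcript strand, and 30.8% of 25821 lincRNA and antisense transcripts of release 29 hold it in their last 50 bases.
proximal terminal exon: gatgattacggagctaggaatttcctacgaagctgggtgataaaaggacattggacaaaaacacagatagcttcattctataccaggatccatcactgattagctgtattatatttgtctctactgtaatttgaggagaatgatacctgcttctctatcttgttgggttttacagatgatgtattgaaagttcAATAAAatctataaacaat

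Summed over its isoforms, CDKN2B-AS1 did not differ between resistant and wild-type cells by more than the spread between replicates. The sum was 9916 and 10183 counts in the resistant libraries, against 9939 and 7127 in the wild-type libraries. Scaled to library size this gave 271 ± 10.2 CPM (counts scaled to library size) in resistant and 299 ± 52.5 CPM in wild-type cells (SD, n = 2 each). The groups overlapped, with both resistant libraries between the wild-type ones. The log2 fold change was -0.14 ± 0.25 (SE), with an adjusted p of 0.921 in edgeR's quasi-likelihood test, where an adjusted p under 0.05 called 0% of 13745 genes. In bulk RNA, fewer cells with a transcript and less of it per cell cannot be told apart.

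Of the 21 isoforms, 14 had counts in some library and 7 had none in any library, namely ENST00000422420, ENST00000577551, ENST00000581051, ENST00000583719, ENST00000584020, ENST00000584637 and ENST00000584816. A count of 0 allows up to 3 counts in a library, 0.0660 to 0.0684 CPM in resistant and 0.0833 to 0.0908 CPM in wild-type libraries, for counting error only. Resistant replicates 1 and 2 held 10 and 9 isoforms with counts, and wild-type replicates 1 and 2 held 10 and 12. Only 7 isoforms had counts in all 4 libraries. In 6 isoforms, 1 library of a group was at 0 while the other held over 300 counts, so at the level of single isoforms the replicates were far apart.

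Of the 14 isoforms with counts, 11 passed the filter on low values and were tested. None passed the adjusted threshold in edgeR, where 0% of 42393 transcripts did, and 1 of the 11 had an unadjusted p under 0.05, against 7.74% of all transcripts tested (3.18% when only lower means are counted, as here). The limma-voom test called none of the 11 and 0% of all transcripts, whereas DESeq2 called 1 of the 11 and 5.33% of all transcripts. The groups did not overlap for 2 of the 11, against 40.3% of all transcripts tested. Means in resistant cells were higher for 6 and lower for 5 of the 11, and the median log2 fold change was 0.14, against 0.02 over all transcripts tested.

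The isoform with the largest share over the 4 libraries was ENST00000580576, the distal form with the cassette exon. It has 14 exons and 2175 bases, and skips exons 3 and 8 to 12. It had 2398 and 4863 counts in the resistant libraries, against 2415 and 1481 in the wild-type libraries. As a share of the gene sum this was 24.2% and 47.8% in resistant, against 24.3% and 20.8% in wild-type libraries. Resistant replicate 2 was the high one, while resistant replicate 1 lay among the wild-type values. The log2 fold change was 0.55 ± 0.55 (SE), at an adjusted p of 0.967 in edgeR.

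ENST00000645313 is the short proximal form, with 2 exons and 1950 bases, ending in a long version of exon 2. It had 630 and 2656 counts in the resistant libraries, against 3149 and 2016 in the wild-type libraries, that is 6.35% and 26.1% of the gene sum in resistant and 31.7% and 28.3% in wild-type libraries. Resistant replicate 1 was the low one. On the CPM scale resistant replicate 2, at 60.5, was just under the lower wild-type library, at 61.0, so the groups did not overlap, by a small margin. The log2 fold change was -0.997 ± 0.862 (SE), at an adjusted p of 0.951 in edgeR. It was -0.29 without resistant replicate 1 and -2.42 without resistant replicate 2.

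ENST00000582301 has 6 exons and 956 bases, jumps from exon 7 to exon 10 and ends at the proximal terminal exon. It had 4588 and 0 counts in the resistant libraries, against 1073 and 95 in the wild-type libraries. It made up 46.3% of the gene sum in resistant replicate 1 and none in resistant replicate 2, against 10.8% and 1.33% in the wild-type libraries. The highest and the lowest value thus both came from resistant cells, and the log2 fold change was 1.63 ± 3.39 (SE), at an adjusted p of 0.998 in edgeR.

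ENST00000582072 had the smallest p of the 11 tested isoforms. It has 9 exons and 1283 bases, joins exon 1 to exons 5, 6 and 7 and then goes directly to exon 15, ending distally. It had 0 counts in both resistant libraries, against 1556 and 1685 counts, or 15.7% and 23.6% of the gene sum, in the wild-type libraries. In CPM this was 0 in both resistant libraries against 43.2 and 51.0 in the wild-type libraries, at least 701-fold lower in the resistant cells when each resistant library is set to its floor of 3 counts. Its unadjusted p was 0.000972 and its adjusted p was 0.329 in edgeR. DESeq2 gave an adjusted p of 5.17e-13 and limma-voom one of 0.615, so the call depends on the tool.

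The sequence of ENST00000582072 is shared with other isoforms, and the part of this sharing in its counts was not tested. Every stretch of 31 bases in it, and every window of 150 bases, the read length, also occurs in another isoform of the gene. ENST00000421632 lies whole within it, with exons 5, 6, 7, 15, 16 and part of 17. That shorter isoform, named after its values were seen, had 991 and 0 counts in the resistant libraries, 9.99% of the gene sum in replicate 1, against 0 and 0 in the wild-type libraries. The junction from exon 7 to exon 15, summed over the isoforms that hold it, therefore had 991 and 0 counts in the resistant libraries, against 1556 and 1685 in the wild-type libraries. In these sums of isoform estimates the junction was at 9.99% of the gene sum in resistant replicate 1 and at 0 in resistant replicate 2. The groups still did not overlap. ENST00000421632, which gave the counts of resistant replicate 1, has no window of 150 bases of its own.

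The 19-exon isoform ENST00000428597, 3835 bases long, had counts in every library. It had 737 and 1028 counts in the resistant libraries, against 810 and 442 in the wild-type libraries, and its groups overlapped. Its shares were 7.43% and 10.1% in resistant and 8.15% and 6.2% in wild-type libraries, and the log2 fold change, 0.14 ± 0.49 (SE), had an adjusted p of 0.9996 in edgeR. ENST00000585267, which leaves exon 7 out and joins exon 6 to exon 14, had 0 and 1220 counts in the resistant libraries, 12.0% of the gene sum in replicate 2, against 0 and 0 in the wild-type libraries. With counts in 1 library it did not pass the filter and was not tested.

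The other 7 isoforms with counts were smaller. ENST00000455933, which splices exon 7 to the proximal terminal exon, had 332 and 0 counts in resistant against 645 and 212 in wild-type libraries. ENST00000584351, with 13 exons up to the proximal terminal exon, had 0 and 23 counts in resistant against 0 and 568 in wild-type libraries. ENST00000580467 was counted in wild-type replicate 2 alone, with 337 counts. These 3 forms all end at the proximal terminal exon and each was at 0 in at least 1 library. ENST00000468603, the other proximal form, had 22 and 211 counts in resistant against 154 and 188 in wild-type libraries. The 3 forms that start near the distal end (ENST00000643286, ENST00000644233 and ENST00000645223) had 19 to 138 counts in resistant and 5 to 85 in wild-type libraries. The groups overlapped for all 7, and the smallest adjusted p among the tested isoforms other than ENST00000582072 was 0.938 in edgeR.

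**Figure D2:**
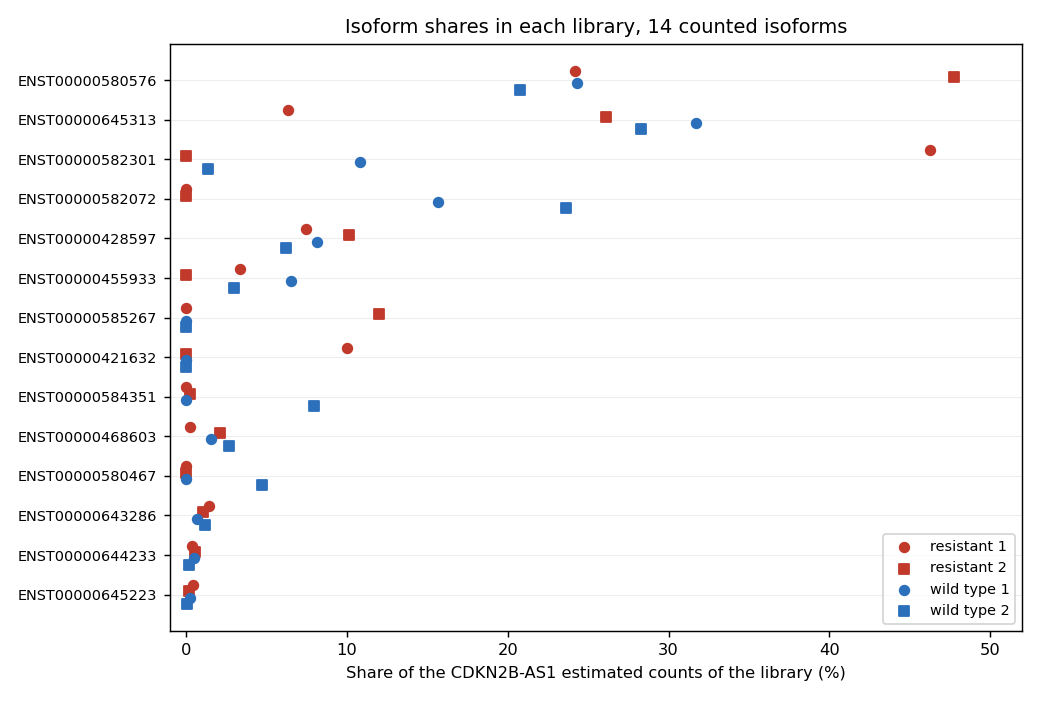
Share of the CDKN2B-AS1 gene sum, in percent, held by each of the 14 isoforms with counts in each library, with the points of the resistant libraries above those of the wild-type libraries. ENST00000582301 leads resistant replicate 1 at 46.3%, ENST00000580576 leads resistant replicate 2 at 47.8%, and ENST00000645313 leads both wild-type libraries at 31.7% and 28.3%.

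The leading isoform was thus another in each resistant library and the same in the wild-type pair. The 3 top isoforms held 80.4% and 85.8% of the gene sum in the resistant libraries, against 71.6% and 72.7% in the wild-type libraries. Per kilobase of transcript, the scale on which isoforms of unlike length can be compared, ENST00000582301 led in resistant replicate 1, with 4799 counts per kb, and ENST00000580576 in resistant replicate 2, with 2236. In the wild-type libraries ENST00000645313 led in replicate 1, with 1615 counts per kb, and ENST00000582072 in replicate 2, with 1313. Length therefore changes the leader of wild-type replicate 2 and of no other library.

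Grouped by 3′ end, the wild-type libraries were close to each other and the resistant libraries lay on either side of them in 2 of the 3 classes. Distal ends took 43.8% and 71.6% of the gene sum in the resistant libraries, against 49.5% and 52.1% in the wild-type libraries. The means were 57.7% ± 19.7 in resistant and 50.8% ± 1.83 in wild-type cells (SD, n = 2 each), a difference of 6.94 percentage points that is smaller than the spread between the resistant libraries. Middle ends, at the proximal terminal exon shown above, took 49.6% and 0.226% in the resistant libraries, against 17.3% and 17.0% in the wild-type libraries. Proximal ends took 6.58% and 28.2% in the resistant libraries, against 33.2% and 30.9% in the wild-type libraries, and here the groups did not overlap. With 2 libraries against 2, the smallest p that an exact permutation test can give is 0.33, so none was run on these shares.

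Shares by exon did not all place the wild-type libraries between the resistant ones. Isoforms that join exon 1 to exon 2 took 38.2% and 86.2% of the gene sum in the resistant libraries, against 65.7% and 65.9% in the wild-type libraries. Isoforms with exons 5 and 6 took 91.2% and 70.1% in the resistant libraries, against 65.4% and 67.6% in the wild-type libraries. Both resistant libraries were thus above both wild-type ones, but the 70.1% includes 12.0% from ENST00000585267, counted in that library alone. Isoforms that also hold exon 7 took 91.2% and 58.1% in the resistant libraries, against 65.4% and 67.6% in the wild-type libraries. Among all transcripts tested, the groups did not overlap in CPM for 40.3%, and no such share was computed for sums by exon or 3′ end. Starts at exon 1 took 87.8% and 98.2% in the resistant libraries, against 98.6% and 98.6% in the wild-type libraries, with both resistant libraries below. In resistant replicate 1, ENST00000421632, which starts at exon 5, held 9.99%, and the remaining starts of each library lay near the distal end.

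Of 7 annotated exits from exon 7, 6 were counted. The exit to exon 10 took 46.3% and 0% of the gene sum in the resistant libraries, against 10.8% and 1.33% in the wild-type libraries. The exit to the cassette exon took 24.2% and 47.8% in the resistant libraries, against 24.3% and 20.8% in the wild-type libraries. The exit to exon 15 took 9.99% and 0% in the resistant libraries, against 15.7% and 23.6% in the wild-type libraries. Of these 3, the groups did not overlap for the exit to exon 15. The exit to exon 8, which had counts in every library, took 7.43% and 10.3% in the resistant libraries against 8.15% and 14.2% in the wild-type libraries. In resistant replicate 2, then, the isoforms with exon 7 were left with the exits to the cassette exon and to exon 8, and the other exits were at 0.

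**Figure D3:**
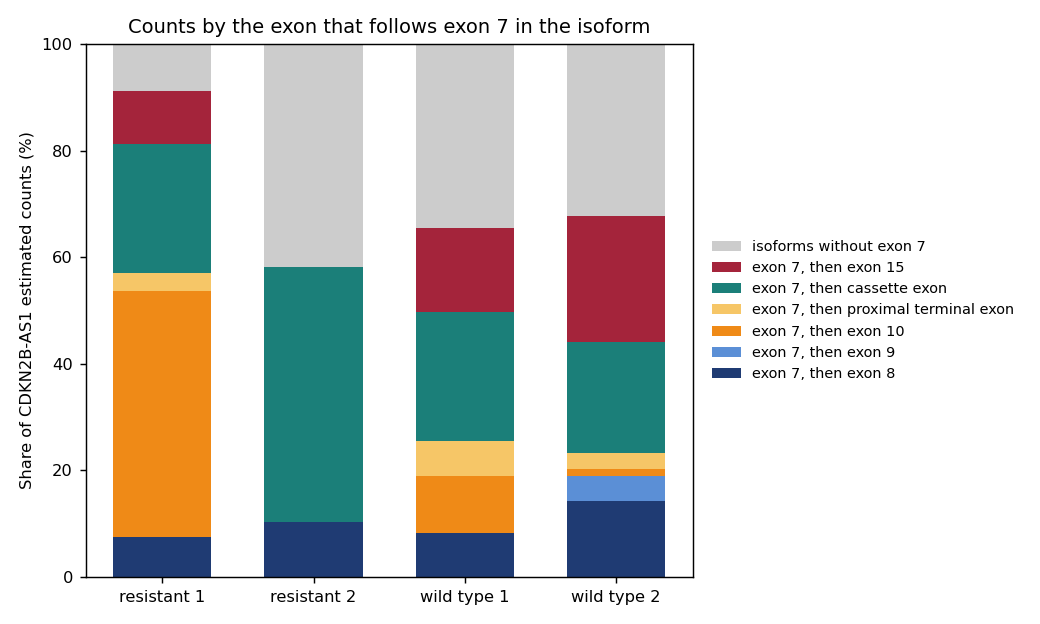
Share of the CDKN2B-AS1 gene sum, in percent, by the exon that follows exon 7, for each resistant library and then each wild-type library. The exit to exon 10 is at 46.3% in resistant replicate 1 and 0% in resistant replicate 2, while the isoforms without exon 7 take 8.77% and 41.9% in the resistant libraries against 34.6% and 32.4% in the wild-type libraries.

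Over the whole gene there were 39 annotated junctions, of which 32 had counts through some isoform and 24 in all 4 libraries. In share of the gene sum, the groups did not overlap for 2 of the 32, from exon 5 to exon 6 and from exon 7 to exon 15. Among all transcripts tested, the groups did not overlap in CPM for 40.3%. No such share was computed for junctions or exits from exon 7. The junctions from exon 7 to exon 9 and from exon 10 to exon 12 were at 0 in both resistant libraries, and ENST00000580467 alone holds them. The junction from exon 6 to exon 14, printed above, was at 0 in both wild-type libraries. These are sums of the isoform estimates, not reads counted across junctions.

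How much of an isoform is its own differed widely. The share of 31-base stretches that no other isoform of the gene holds had a median of 3.57% over the 21 isoforms. It was 0 for 4 of them, namely ENST00000582072, ENST00000421632, ENST00000581051 and ENST00000584351. It was 75.4% for ENST00000645313, 10.2% for ENST00000580576, 5.83% for ENST00000582301 and 0.710% for ENST00000428597. The isoform that leads the wild-type libraries is thus the most distinct of the leading ones, and ENST00000582072, at 0 in both resistant libraries, has no such stretch of its own.

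Sequence is also shared with other genes. Of the 31-base stretches of exon 1, 91.8% lie on the strand opposite to CDKN2A, and the labels do not say whether the library marks strand, so reads of both genes there cannot be told apart if it does not. Exons 2 and 3 are wholly shared with AL359922.1, a readthrough transcript from upstream that has no row in the table. In exon 5, 94.2% of the stretches fall in RF02045, an entry annotated at the same place and strand (chr9:22046758-22046901). It has no row in the table either. In exon 7, 47.2% of the stretches recur in other genes, 2507 in number, and in the cassette exon 48.5% recur in 42 other genes. The proximal terminal exon, exon 10 and exons 13 to 18 share none. The part of this sharing in the isoform estimates was not tested.

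The test of isoform usage asks whether the fold changes of a gene's isoforms differ from each other. For CDKN2B-AS1 it gave a p of 0.115 and an adjusted p of 0.601 over 11 isoforms (edgeR diffSpliceDGE), and the gene did not pass. The same test called 4.42% of 7418 genes at an adjusted p under 0.05, and 12.5% had an unadjusted p under 0.05. Of the single isoforms, ENST00000582072 had the smallest usage p of the gene, 0.00156, with an adjusted p of 0.124 (edgeR). Over all genes 0.836% of 31235 transcripts passed the adjusted usage threshold, and 3.82% had an unadjusted p under 0.05.

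The distance between 2 libraries was then measured as the share of counts that would have to move between isoforms to make their shares equal. For CDKN2B-AS1 it was 60.2% within the resistant pair, 22.3% within the wild-type pair, and 47.2% on average over the 4 pairs between groups, with a range of 38.6% to 60.7%. The resistant replicates were therefore farther from each other than the groups were on average. Over 1733 genes with at least 5 counted transcripts and at least 1000 counts in every library, the medians were 15.5% within the resistant pair, 17.0% within the wild-type pair and 19.8% between groups. Of these genes, 4.90% were at or above CDKN2B-AS1 within the resistant pair, 38.9% within the wild-type pair and 6.46% between groups. Among the 398 of them with 10 to 20 counted transcripts, 6.53%, 50.5% and 9.30% were at or above it in the same order. The leading isoform was the same in both resistant libraries for 72.8% of the 1733 genes and in both wild-type libraries for 70.5%. CDKN2B-AS1 belonged to this majority in the wild-type pair and not in the resistant pair.

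**Figure D4:**
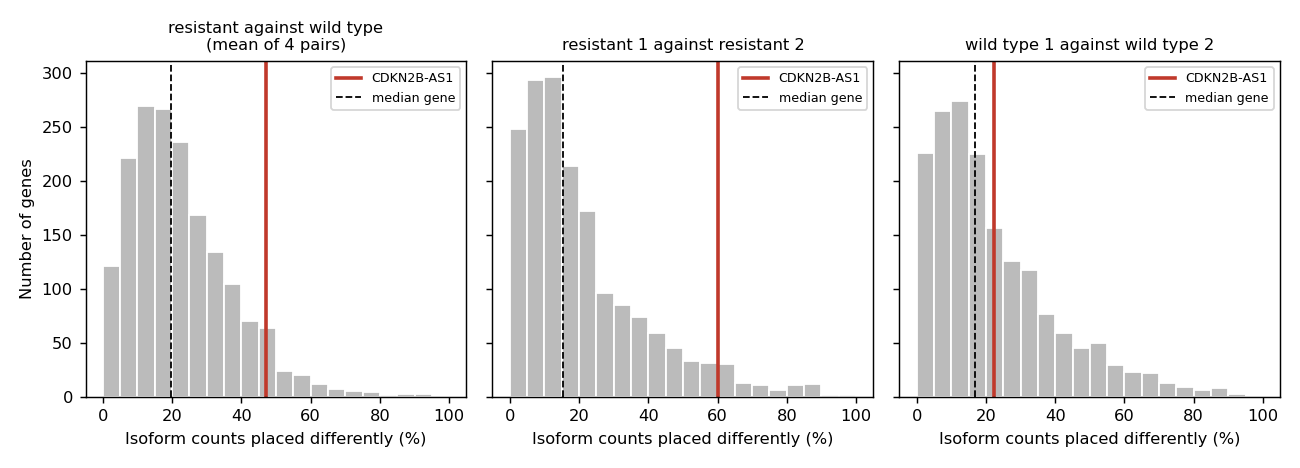
Distribution over 1733 genes of the distance between isoform shares, in percent, between groups, within the resistant pair and within the wild-type pair, with the value of CDKN2B-AS1 marked. The gene lies at 47.2% between groups, 60.2% within the resistant pair and 22.3% within the wild-type pair, against medians of 19.8%, 15.5% and 17.0%.

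Genes tied to CDKN2B-AS1 by position or by known function were read from the same table, as sums of their noncoding transcripts. Of 53 names, 43 were in the table and 36 were tested. None passed in edgeR, where 0% of 13745 genes did, and 1 had an unadjusted p under 0.05, against 8.67% of all genes. The limma-voom test called none of the 36 and 0% of all genes, and DESeq2 called 1 of the 36 and 4.61% of all genes. Means were higher in resistant cells for 21 and lower for 15, with a median log2 fold change of 0.05, against 0.01 over all genes tested. The groups did not overlap for 14 of the 36, against 43% of all genes.

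At 9p21, 6 of 14 named neighbours were tested, with 2 higher and 4 lower means. The noncoding transcripts of CDKN2A, which encodes the cell cycle inhibitors p16 and ARF and overlaps exon 1 on the other strand, had 1105 and 872 counts in the resistant libraries, against 916 and 593 in the wild-type libraries. The groups overlapped, with a log2 fold change of 0.01 ± 0.35 (SE), at an adjusted p of 0.997 in edgeR. CDKN2B, which encodes the inhibitor p15 and lies inside the first intron of CDKN2B-AS1, had 23 and 43 counts in the resistant libraries, against 15 and 113 in the wild-type libraries, from 1 retained-intron transcript. Here too the groups overlapped, and the log2 fold change was -1.38 ± 1.20 (SE), at an adjusted p of 0.813 in edgeR.

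MTAP, an enzyme of methionine salvage encoded upstream, had 858 and 4545 counts in the resistant libraries, against 3405 and 1036 in the wild-type libraries, so replicates of both groups differed by more than the group means. Its transcript ENST00000579422 had 0 and 3081 counts in resistant, against 2083 and 0 in wild-type libraries. The lncRNA MIR31HG, host of the microRNA gene MIR31, was the most abundant neighbour, with 73257 and 18375 counts in the resistant libraries, against 15713 and 13338 in the wild-type libraries. Resistant replicate 1 stood far above the others, and the log2 fold change was 1.26 ± 0.74 (SE), at an adjusted p of 0.720 in edgeR. FOCAD, a regulator of focal adhesion, was at 184 ± 65.5 CPM in resistant and 272 ± 40.0 CPM in wild-type cells (SD, n = 2 each), with an edgeR adjusted p of 0.749.

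**Figure D5:**
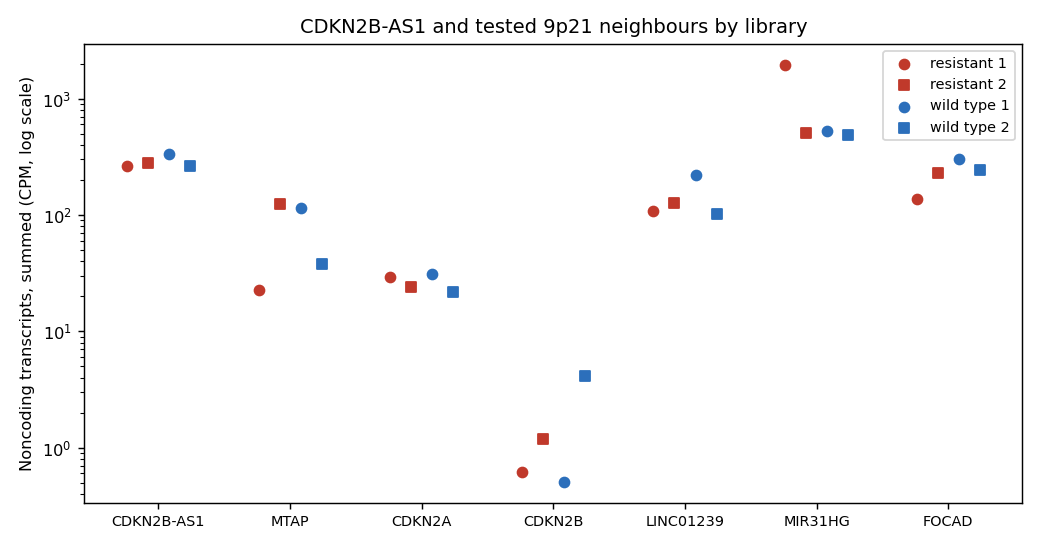
Noncoding CPM, on a log axis, of CDKN2B-AS1 and its tested 9p21 neighbours in each library, resistant left of wild type. CDKN2B-AS1 lies at 264 and 278 CPM in the resistant libraries and at 336 and 262 CPM in the wild-type libraries, and MIR31HG in resistant replicate 1 is the highest point.

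Among 13 tested Polycomb genes, 9 means were higher and 4 lower in resistant cells, and the groups did not overlap for 8, against 43% of all genes. The 2 most abundant were RBBP7, a histone-binding subunit, at 91.7 ± 19.5 CPM in resistant and 110 ± 12.4 CPM in wild-type cells, and EED, a subunit that reads methylated histone H3, at 90.3 ± 14.6 CPM in resistant and 71.5 ± 2.74 CPM in wild-type cells (SD, n = 2 each). EZH2, the methyltransferase of this complex, is named after its values were seen as the linked gene with an unadjusted p under 0.05. Its noncoding transcripts had 826 and 698 counts in the resistant libraries, against 20 and 29 in the wild-type libraries. Both resistant libraries were far above both wild-type ones, with a log2 fold change of 4.55 ± 0.47 (SE), but the edgeR adjusted p was 0.323. DESeq2 called it, with an adjusted p of 1.59e-14. No protein-coding EZH2 transcript was read here, so these values say nothing of its mRNA.

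Of the cyclin D, CDK4/6 and RB genes, on which the inhibitors of 9p21 act, 7 were tested, with 5 higher and 2 lower means. CDK6, a kinase that p16 and p15 inhibit, was at 127 ± 0.355 CPM in resistant and 123 ± 63.6 CPM in wild-type cells, and RB1, the pocket protein these kinases phosphorylate, at 109 ± 10.6 CPM in resistant and 73.3 ± 23.4 CPM in wild-type cells (SD, n = 2 each). Of 5 regulators, ATM, the DNA damage kinase, was at 334 ± 57.0 CPM in resistant and 273 ± 111 CPM in wild-type cells, and MDM2, the ubiquitin ligase of p53, at 141 ± 47.2 CPM in resistant and 104 ± 30.6 CPM in wild-type cells (SD, n = 2 each). Of 5 genes reported to respond to the RNA or to bind it, CARD8, an inflammasome sensor, was at 47.2 ± 1.54 CPM in resistant and 55.1 ± 23.7 CPM in wild-type cells, and PES1, a ribosome assembly factor, at 19.3 ± 1.85 CPM in resistant and 42.0 ± 27.4 CPM in wild-type cells (SD, n = 2 each). The smallest adjusted p in these 3 lists was 0.699 in edgeR.

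The genes whose level was nearest to that of CDKN2B-AS1 were sought among 42 lincRNA and antisense genes of a like mean. The measure was the root mean square difference of log2(CPM + 0.5) over the 4 libraries, which gives nearness of level and not a shared pattern. The closest were the lincRNA genes DANT2, at 0.07, LINC00630, at 0.22, and MUC20-OT1, at 0.29. DANT2 had 251 and 263 CPM in the resistant libraries, against 320 and 257 CPM in the wild-type libraries, and as for CDKN2B-AS1 wild-type replicate 1 was the highest of the 4. LINC00630 was also highest in wild-type replicate 1, at 302 CPM, whereas MUC20-OT1 was highest in resistant replicate 2, at 379 CPM.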

How the data were processed

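The deposited table gives estimated counts in whole numbers for 106179 transcripts, 1 column per library; this unit was inferred from its values and is not named by the authors. No source used here gives the aligner, counting tool or annotation, and the submitters' processing notes name mm9, a mouse build, although 103347 identifiers are human Ensembl ones. GENCODE release 29 (GRCh38) named 84072 of them, and 19275 Ensembl identifiers without a name there were not used.

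Members, lists and the rule for named isoforms and genes were chosen with earlier results of these data known, and the views by exon, junction, exit from exon 7 and shared sequence after isoform values were seen. The rule names isoforms with a mean share of at least 5% in a group or a p under 0.05. Of each list of linked genes it names the 2 of highest mean, and CDKN2A, CDKN2B and MTAP always.

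All features were tested across the whole table with edgeR 4.0.16 (quasi-likelihood, two-sided, trimmed mean of M-values, expression filter at a minimum count of 10, Benjamini-Hochberg, R 4.3.3), per transcript, per gene sum and, with diffSpliceDGE, for usage. DESeq2 1.42.0 and limma 3.58.1 were alternatives. The steps were also run on simulated data with the same small spread between replicates for every feature. That spread lacks the swings between replicates seen in these isoforms, so the run says nothing of the power to find changes here. The CPM of transcripts and of gene sums are on separate scales. Exon and junction values are sums of isoform counts. Other analysis used Python 3.11.15, pandas 2.3.3, numpy 2.4.6 and matplotlib 3.10.9. Chi-square per transcript within the pairs was 242 (resistant) and 216 (wild type), far above what counting error alone gives. No library of a pair was thus a copy of the other, and all 4 libraries were kept. These values do not show that replicates were alike. Some items are not reported here.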

Additional observations from a re-analysis of the deposited data

How the results depend on the processing

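The floors cover counting error only, whereas the SDs and the SEs of the edgeR fit include the spread between libraries. How much that spread and the assignment of shared sequence each add to the isoform values was not tested. The gene sum kept a small negative log2 fold change, -0.14, except without wild-type replicate 1, where it was 0.051; leaving out each library gave -0.31 to 0.051, and no alternative made it pass. DESeq2 called 1 isoform (ENST00000582072) and 1 linked gene (EZH2), against none in edgeR. The log2 fold change of ENST00000582301 turned negative with the replicate block (-2.51) and with limma-voom (-3.04), and ran from -12.26 to 4.13 without each library in turn. The same range was -0.088 to 0.99 for ENST00000580576 and -0.18 to 0.57 for ENST00000428597. The cause was not tested. The distal share differed by -6.97 to 20.8 percentage points without each library in turn, against 6.94, so its direction rests on resistant replicate 2. The difference was 0.595 points over isoforms with at least 10 counts in at least 2 libraries. It was 14.7 points when distal meant beyond the midpoint of the span. That wider class also takes in the isoforms that end at the proximal terminal exon. Replicate numbers were not used to pair the libraries in the main tests. Same-numbered deviations correlated at 0.0084 over transcripts and -0.0187 over gene sums, which cannot tell whether same-numbered libraries were prepared together. The replicate block gave a gene-sum log2 fold change of -0.13 and a usage adjusted p of 0.583 (edgeR diffSpliceDGE). Apart from the distal share, the values of the main comparisons not named above kept their direction and their side of the threshold. So did 38 values of the named isoforms. With the distal share included, 39 values of the main comparisons were counted as unchanged. The distal share is counted among the 39 because it moved by less than the SD between the resistant libraries. Leaving out 1 resistant library always moves it by less than that SD, so this rule could not show a change there, and its direction did turn.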
